A study of Mus musculus with 2 samples.

Results

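Cytosolic ribosomal protein genes and their paralogues were described in limb tissue of mouse embryos of strain B6NCrl at 15.5 days of gestation, by total RNA sequencing. The members were protein-coding genes whose symbols start with Rpl or Rps and a number, without the Rps6 kinases, plus Rplp0, Rplp1, Rplp2 and Rpsa. The rule itself uses no measured value, but it was set with earlier results of these data known. The rule found 92 genes among 43346 mouse genes with a row in the tables. Of these, 77 are core genes that encode a standard protein of the cytosolic ribosome, 46 in the large and 31 in the small subunit. Another 8 are paralogues (Rpl3l, Rpl7l1, Rpl10l, Rpl22l1, Rpl36al, Rpl39l, Rps27l and Rps27rt). The other 7 carry a pseudogene-style name in 6 cases (Rpl10-ps3, Rpl9-ps1, Rpl36a-ps1, Rpl36-ps4, Rpl9-ps6 and Rps12-ps3), and Rps19bp1 encodes a protein named for binding Rps19, not a ribosomal protein.

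There was 1 group of untreated, healthy limbs with 2 biological replicates, each from a pool of male and female embryos: 78 embryos in replicate 1 and 62 in replicate 2. RNA over 200 nt was kept and 10 ng was used for each library. The labels do not state which limbs were taken or how much of each. With 1 group there is no comparison of conditions, and values are given per replicate, or as mean ± SD with n = 2, without a p-value. The tables held 35104685 expected counts in replicate 1 and 41757268 in replicate 2. The limb label was checked against markers: the limb mesenchyme gene Prrx1 had 86.3 and 94.2 TPM and the cartilage collagen gene Col2a1 had 689 and 731 TPM (replicates 1 and 2), while Nppa, Sftpc and Pax6, markers of heart, lung and brain or eye, stayed under 1 TPM. Of the liver markers, Alb had 2.14 and 10.3 TPM and Afp 3.41 and 21.5 TPM, so they were present at a low level, higher in replicate 2. TPM is a level scaled by transcript length, so that genes of unequal length can be compared.

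The ribosome is built from ribosomal RNA and about as many copies of each ribosomal protein as there are ribosomes, so that the core proteins are needed in similar numbers. Their mRNAs are short, abundant and carry a terminal oligopyrimidine (TOP) sequence at the start, a run of C and T in the DNA through which the mTOR pathway adjusts their translation. Mammalian genomes hold many processed pseudogenes made from these mRNAs, and a few functional paralogues whose use differs between tissues. In the mouse, loss of 1 copy of Rpl38 alters the patterning of the axial skeleton, and mutations of several other core genes cause anaemia or limb anomalies in human patients with Diamond-Blackfan anaemia.

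The core genes were among the most abundant mRNAs of the limb. Their median level was 628 TPM in replicate 1 and 751 TPM in replicate 2 (689.8 ± 87.0 TPM, SD, n = 2), beside a median of 18.8 and 18.4 TPM over all protein-coding genes with a mean of at least 1 TPM. Together the 77 genes held 5.53% and 6.48% of all TPM. Of the 100 protein-coding genes with the highest mean TPM, 23 were core genes, and of the 200 highest, 50 were. The lowest core gene still ranked 3016 of 21474 protein-coding genes.

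Levels within the family were uneven. The SD of log2 TPM over the 77 genes was 1.00 in replicate 1 and 0.99 in replicate 2, and the upper quartile was 2.14 and 2.18 times the lower quartile. In each library the highest gene, Rpl41, stood 52.9-fold and 62.4-fold above the lowest, Rpl5, in TPM. Between 500 and 1500 TPM lay 50 and 51 of the 77 genes. The order of genes was nearly the same in both libraries (Spearman rho 0.99 over 77 genes, a description of points that share their libraries).

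**Figure D1:**
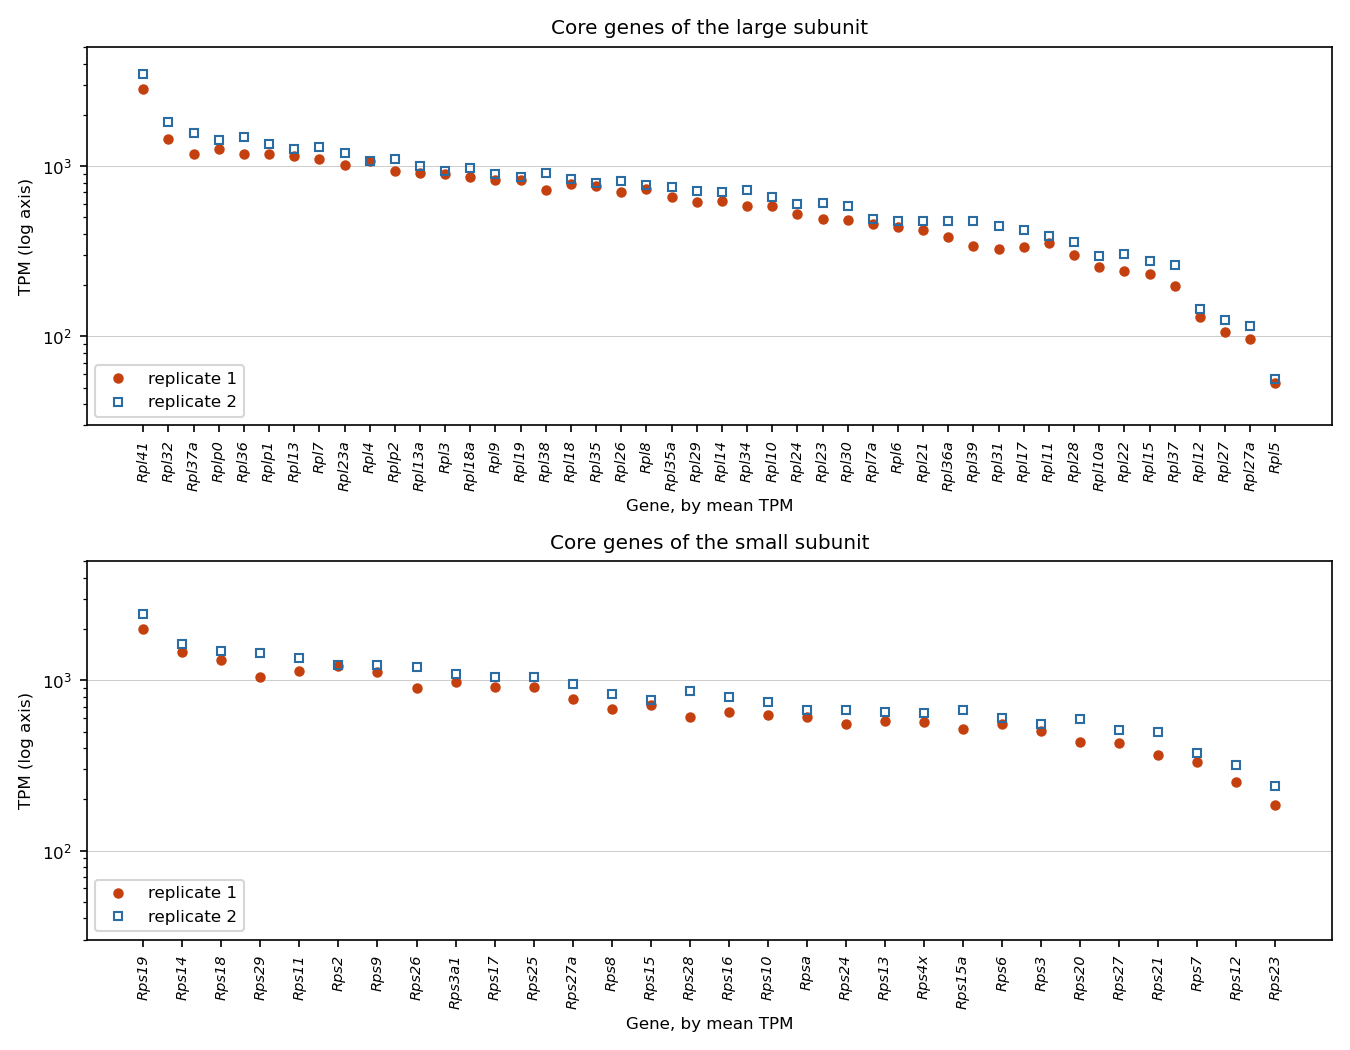
TPM (log axis) of each core gene of the large subunit (top) and the small subunit (bottom, 1 gene not shown) in replicate 1 (filled circles) and replicate 2 (open squares), ordered by mean TPM. The large subunit genes reach down to Rpl5 at 53.5 and 55.9 TPM, while the lowest small subunit gene, Rps23, had 186 and 239 TPM.

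In the large subunit, Rpl41, which encodes a very short protein at the interface of the subunits, had the highest level, at 2833 and 3485 TPM in replicates 1 and 2. Rpl32 followed with 1434 and 1818 TPM. Rpl37a, a zinc-binding protein, had 1183 and 1559.6 TPM, and Rplp0, which anchors the acidic stalk where elongation factors bind, had 1260 and 1422 TPM. Rpl37a and Rplp0 changed places between the replicates, so their order did not hold beyond the spread.

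At the low end of the large subunit stood Rpl12, a protein of the base of the stalk, with 129.6 and 143.9 TPM. Rpl27 had 106 and 125 TPM and Rpl27a had 96.2 and 116 TPM. Rpl5, which carries the 5S rRNA into the ribosome together with Rpl11 and can bind the p53 regulator Mdm2, had 53.5 and 55.9 TPM. These 4 genes kept their order in both libraries.

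In the small subunit, Rps19, needed for maturation of the small subunit rRNA, was highest with 2011 and 2437 TPM. Rps14 had 1456 and 1633 TPM, Rps18 1307 and 1483 TPM, and Rps29, a small zinc-binding protein, 1045 and 1444 TPM. The lowest were Rps21 with 363 and 494 TPM, Rps7 with 331 and 375 TPM, Rps12 with 254 and 317 TPM, and Rps23, a protein of the decoding centre, with 186 and 239 TPM. The large subunit was more spread than the small: its SD of log2 TPM was 1.13 in both libraries, against 0.74 and 0.72 for the small subunit. The medians were close, at 620.4 and 721.2 TPM for the large subunit and 648 and 797 TPM for the small. The log2 ratio of large over small was −0.06 in replicate 1 and −0.14 in replicate 2.

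Many core genes share sequence of read length with processed copies. Effective lengths in the tables equal the annotated length less 99 bases, the value for reads of 100 bases, so exact windows of 100 bases were compared between each member's most abundant transcript and the transcripts of other genes. Of the 77 core genes, 69 shared at least 1 window with another gene, 27 shared at least 50% of their windows, and the median gene shared 39.1%. The 8 without a shared window included Rpl22, Rpl32 and Rps20. Their median was 499 and 596 TPM, against 648 and 761 TPM for the 69 genes with shared windows, and their lowest gene, Rpl22, had 241 and 307 TPM. For Rps20 and Rpl23, both among the 8, the transcript compared is not annotated as protein coding. Sharing by their coding transcripts was not tested. Rpl5, led by a retained intron transcript, shared 20.1% of its windows, though a pseudogene described below matches all its coding bases. The sharing found can thus be too low.

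The pseudogenes that share windows with core genes numbered 349. Of these, 43 had no counts in either library and 27 exceeded 100 TPM in both. Their summed level was 14159.9 and 16339 TPM, or 20.4% and 20.1% of the sum of core genes and pseudogenes. In expected counts, which are not divided by length, the share was 14.3% and 13.9%. A pseudogene is annotated without the full untranslated ends, so its short length raises its TPM relative to its counts. Reads from a window that 2 genes share cannot be told apart, and whether these counts came from the pseudogene or from the core gene was not tested.

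Most low core genes had high values at their copies. Of the 10 core genes with the lowest TPM, 9 had a summed TPM of pseudogenes above their own in both libraries. Over all 77 core genes this held for 15 in replicate 1 and 13 in replicate 2. A gene whose shared reads are placed on a copy has a lower TPM, so picking genes by low TPM favours such genes. With the pseudogenes added, Rpl5 came to 711 and 732 TPM, Rpl27a to 597 and 753 TPM, Rpl27 to 934 and 1126 TPM, and Rps23 to 1293 and 1632 TPM. The exception among the 10 was Rpl22, which shares no window and then became the lowest core gene. The SD of log2 TPM over the core genes was 0.67 with the pseudogenes added in both libraries, against 1.00 and 0.99 without them, and the highest gene stood 11.8-fold and 11.4-fold above the lowest.

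**Figure D2:**
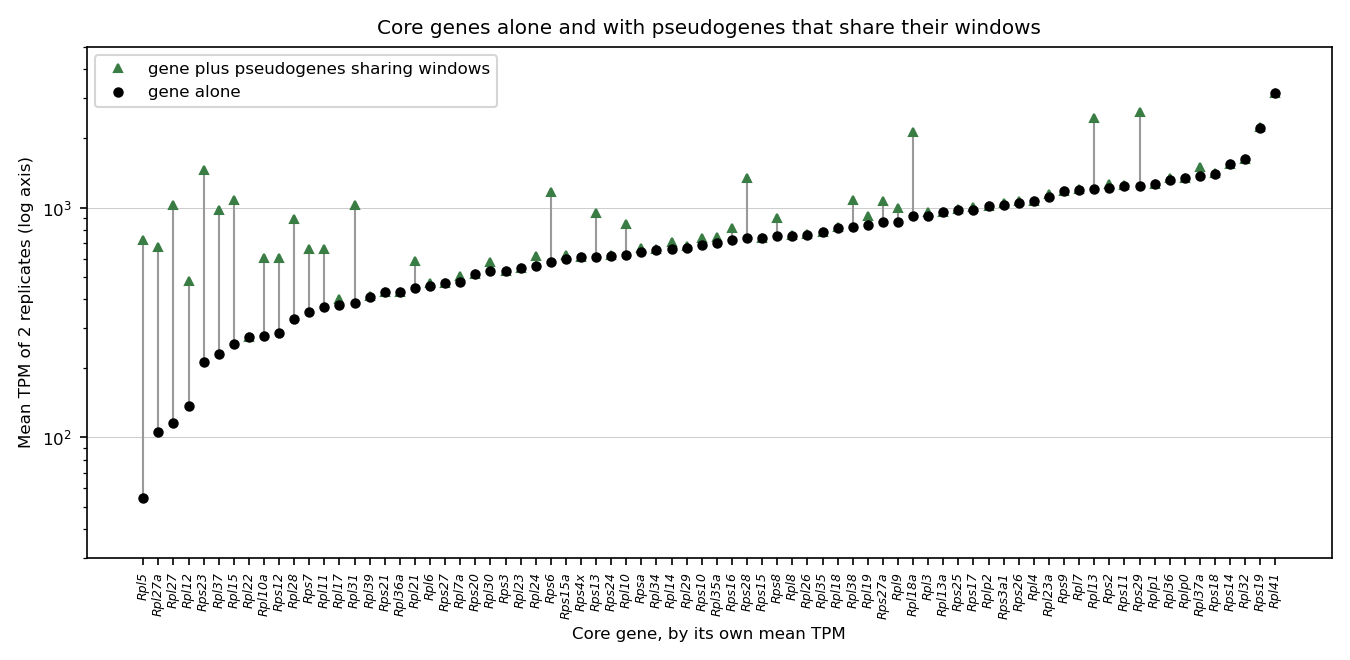
Mean TPM of the 2 replicates (log axis) for core genes (1 not shown) alone (circles) and with the TPM of pseudogenes that share a 100-base window with it added (triangles), ordered by the gene's own level. The lines are long at the low end, as for Rpl5, where the sum was 721 TPM against 54.7 TPM for the gene, and short for Rpl41 and Rps19 at the high end.

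Rpl5 shows the case most clearly. Its copy Gm15500, a transcribed processed pseudogene at chr7:114705217-114706235 on the minus strand (GRCm38), had 658 and 676 TPM and 13091 and 16541 expected counts, while Rpl5 itself, at chr5:107900502-107909005 on the plus strand, had 1343 and 1679 expected counts. All 894 coding bases of Rpl5 have the same letters in Gm15500. The first 120 coding bases are shown because no read of 100 bases that lies within them can separate the genes, and no letter is in capitals since none differs.
Rpl5: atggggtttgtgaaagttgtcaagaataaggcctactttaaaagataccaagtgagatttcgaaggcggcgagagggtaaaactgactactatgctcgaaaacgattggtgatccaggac
Gm15500: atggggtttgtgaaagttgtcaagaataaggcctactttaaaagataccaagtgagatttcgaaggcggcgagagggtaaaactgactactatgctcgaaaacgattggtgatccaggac

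Copies of several other core genes, most of them low, were alike in this respect. Against the coding sequence of the core gene, Gm7536 (Rpl27a), Gm10275 (Rpl12), Rps23-ps1 (Rps23), Rpl15-ps3 (Rpl15), Rpl10a-ps1 (Rpl10a), Rpl28-ps1 (Rpl28) and Rpl31-ps8 (Rpl31) had no mismatch over the aligned bases, and Rpl37rt (Rpl37) had 1 in 294. The aligned bases were 444 of 447 coding bases for Gm7536 and 425 of 432 for Rps23-ps1, and all coding bases for the others. Rps23-ps1 had 1100.4 and 1387 TPM, and Rpl15-ps3 had 803 and 845 TPM. High copies were not limited to low genes: Gm12918, a copy of Rpl13, had 1272 and 1231 TPM beside 1147 and 1267 TPM for Rpl13.

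The deposited tables give a 95% interval of each TPM, which covers the uncertainty of read placement and counting. Its width was 5.35% of the TPM in replicate 1 and 4.22% in replicate 2 for the median core gene. The widest belonged to Rps27, at 26.9% and 22.4%, from 362 to 477 TPM in replicate 1. Next were Rps12 at 17.7% and 14.9%, Rpl27 at 16.0% and 14.0%, and Rpl5 at 15.6% and 14.2%. The wide interval of Rps27, a zinc-binding protein of the small subunit, went with the highest sharing in the family. Of the windows of its 345-nt transcript, 98.4% also lie in Rps27rt. The counting used only the 255 coding bases of Rps27, all of which are identical in Rps27rt.

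The paralogues fell into 3 levels. Rpl22l1, Rpl36al, Rps27l and Rps27rt were as abundant as core genes, with means of 287 to 1248 TPM. Rpl7l1 and Rpl39l were lower, with means of 117 and 6.81 TPM. Rpl3l and Rpl10l were at or near no counts.

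**Figure D3:**
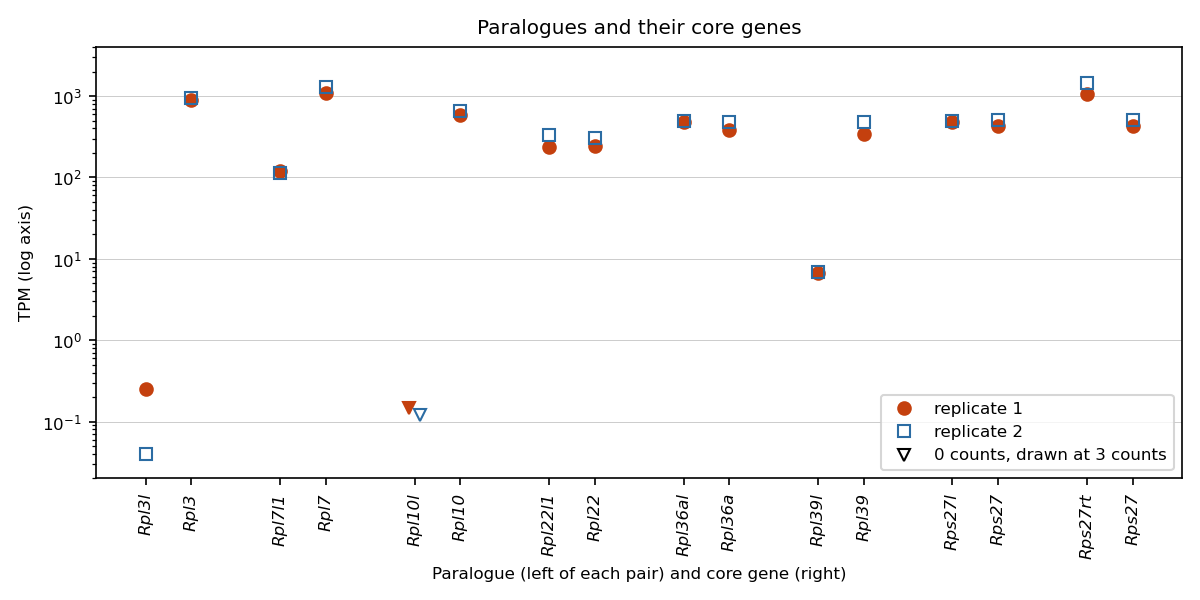
TPM (log axis) of each paralogue (left of each pair) and its core gene (right) in replicate 1 (filled) and replicate 2 (open), with genes at 0 counts drawn as triangles at the TPM of 3 counts. Rpl3l, Rpl10l and Rpl39l lie far below their core genes, while Rpl22l1, Rpl36al and Rps27l lie beside theirs.

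Rpl22l1 encodes a paralogue of Rpl22, an RNA-binding protein of the large subunit that in the mouse represses the paralogue's mRNA. Rpl22l1 (chr3:28805436-28807424) had 238 and 336 TPM, against 241 and 307 TPM for Rpl22 (240.6 and 306.7). The log2 ratio of paralogue over core was 0.06 ± 0.10 (SD, n = 2), so the levels did not differ beyond the spread between replicates. Their coding sequences are 66.9% identical, with no identical stretch over 26 bases. The leading transcript of Rpl22 shares no window of 100 bases with any gene. The leading transcript of Rpl22l1 shares 34.5% of its windows with 2 other genes, whose part in its value was not tested.

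Rpl36al, a paralogue on chromosome 12 of the X-linked large subunit gene Rpl36a, had 478 and 499 TPM, against 383 and 476 TPM for Rpl36a. The log2 ratio was 0.19 ± 0.18 (SD, n = 2), about as large as its spread. The leading transcript of Rpl36al shares 28.6% of its windows with 1 other gene. The coding sequences, 321 bases each, differ at 39 bases (87.9% identical). The first 120 are shown because they carry 18 of these differences, in capitals in the paralogue, and no stretch over 24 bases is identical in the full sequences.
Rpl36al: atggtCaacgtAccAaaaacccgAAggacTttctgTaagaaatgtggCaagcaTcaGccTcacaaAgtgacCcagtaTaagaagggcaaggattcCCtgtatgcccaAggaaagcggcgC
Rpl36a: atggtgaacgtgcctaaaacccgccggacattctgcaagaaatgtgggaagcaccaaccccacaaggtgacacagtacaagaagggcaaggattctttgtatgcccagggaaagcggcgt

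Rps27 has a pair of paralogues of opposite kinds. Rps27l (chr9:66946086-66949516), whose transcription p53 raises in human and mouse cells, had 484 and 495 TPM, against 428 and 509 TPM for Rps27, a log2 ratio of 0.07 ± 0.15 (SD, n = 2). Rps27rt (chr9:114982366-114982739), a retrocopy, had 1056.0 and 1439.9 TPM, and was 2.47-fold and 2.83-fold above Rps27. Its 255 coding bases are identical to those of Rps27, and the annotation used for the counting gave Rps27 a length of 255 bases, the coding sequence alone. Summed, Rps27 and Rps27rt had 1484 and 1949 TPM, and Rps27l stood at a log2 ratio of −1.80 ± 0.25 to that sum. The coding sequences are shown because they set which values can be read singly: that of Rps27rt has the letters of Rps27 throughout, and capitals in Rps27l mark its 61 differing bases.
Rps27l: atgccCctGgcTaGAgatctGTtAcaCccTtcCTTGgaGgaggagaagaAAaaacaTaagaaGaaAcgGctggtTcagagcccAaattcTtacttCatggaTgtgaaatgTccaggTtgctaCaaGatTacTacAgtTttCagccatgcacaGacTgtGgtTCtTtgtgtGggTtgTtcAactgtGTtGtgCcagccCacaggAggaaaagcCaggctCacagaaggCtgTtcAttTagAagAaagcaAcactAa
Rps27: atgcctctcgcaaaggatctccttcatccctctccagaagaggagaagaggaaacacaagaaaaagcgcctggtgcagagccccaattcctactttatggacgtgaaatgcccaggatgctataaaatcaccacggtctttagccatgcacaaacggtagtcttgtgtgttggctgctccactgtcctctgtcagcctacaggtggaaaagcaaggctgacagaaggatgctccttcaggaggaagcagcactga

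Rpl7l1, whose protein takes part in assembly of the large subunit in the nucleolus, had 121 and 113 TPM, against 1097 and 1292 TPM for Rpl7. It was 9.07-fold and 11.4-fold below Rpl7, a log2 ratio of −3.35 ± 0.23 (SD, n = 2). Its coding sequence is only 52.8% identical to that of Rpl7.

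Rpl39l, best known from male germ cells, was detected at a low level: 6.70 and 6.92 TPM, from 105 and 109 counts. Rpl39, which lines the exit tunnel of the ribosome, had 338 and 478 TPM, and stood 50.5-fold and 69.0-fold above its paralogue. The log2 ratio of Rpl39l over Rpl39 was −5.86 ± 0.32 (SD, n = 2), many times its spread. Both coding sequences, 156 bases each, are shown in full, with the 23 differing bases of Rpl39l in capitals, because the longest stretch they share, 38 bases, is well below the read length.
Rpl39l: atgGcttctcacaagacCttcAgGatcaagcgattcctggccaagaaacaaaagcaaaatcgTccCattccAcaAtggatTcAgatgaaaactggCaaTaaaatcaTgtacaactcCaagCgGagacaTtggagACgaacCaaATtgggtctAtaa
Rpl39: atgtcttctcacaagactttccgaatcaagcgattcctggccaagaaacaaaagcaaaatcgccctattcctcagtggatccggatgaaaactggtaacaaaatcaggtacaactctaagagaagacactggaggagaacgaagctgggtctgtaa

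Rpl3l, a paralogue that replaces Rpl3 in adult skeletal and heart muscle, had 6 counts in replicate 1 and 1 count in replicate 2, or 0.25 and 0.04 TPM. Rpl3 had 896 and 938 TPM. The ratio of Rpl3 over Rpl3l was 3588 in replicate 1 (95% exact Poisson interval 1648 to 9776) and 23892 in replicate 2 (4288 to 943664), intervals that overlap and cover counting error only. Myogenin (Myog), a regulator of muscle differentiation, had 192 and 96.3 TPM in the same libraries.

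Rpl10l, which takes over from the X-linked Rpl10 in male germ cells, had 0 counts in both libraries. A count of 3, the most that 0 counts allow, would correspond to 0.146 TPM in replicate 1 and 0.119 TPM in replicate 2. Rpl10, at 579.6 and 662 TPM, was thus at least 3983-fold and 5559-fold higher. Rpl10l was not detectable at this depth, which leaves room for a level under those limits.

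Among the other members, Rpl10-ps3 had 198 and 281 TPM, and its 645 coding bases are identical to those of Rpl10, with which it summed to 777 and 943 TPM. Rpl9-ps6 had 26.0 and 34.9 TPM, 1 base apart from Rpl9 in 579, and Rps12-ps3 had 22.2 and 32.4 TPM. Rpl36a-ps1 had 1.70 and 2.50 TPM, Rpl9-ps1 had 1 and 0 counts, and Rpl36-ps4 had 0 counts in both libraries, where 3 counts would be 0.527 and 0.432 TPM. Rps19bp1 had 40.0 and 44.9 TPM. The values of the copies that are near identical to a core gene cannot be separated from that gene's reads.

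In the median core gene, 1 transcript held most of the TPM. The 77 genes have 349 annotated transcripts in the tables, and 57 genes have several. The rest have only 1, which holds all of the gene's TPM by definition. They are included in the next figures and raise them. The most abundant transcript held 92.7% of its gene's TPM in replicate 1 and 93.6% in replicate 2 for the median gene, over 90% in both for 42 genes, and was the same transcript in both libraries for 76 of 77. Transcripts annotated as protein coding held 90.9% and 90.8% of the core TPM. Of the rest, 4.09% and 3.94% lay in transcripts with no annotated coding sequence (processed transcripts) and 3.0% and 3.3% in retained introns.

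In 9 genes the most abundant transcript held under 60% in both libraries: Rpl5, Rpl7, Rpl11, Rpl13a, Rpl15, Rpl29, Rpl38, Rps18 and Rps19. Rpl11, the partner of Rpl5, was the gene whose leading transcript differed, with Rpl11-210 at 49.6% and 43.6% and Rpl11-201 at 42.2% and 50.0%. Rpl38 was divided over coding transcripts of similar length, Rpl38-201 (364 nt) at 44.8% and 47.0% and Rpl38-204 (371 nt) at 37.4% and 39.7%. Rpl29 was divided likewise, with Rpl29-201 at 55.2% and 52.7% and Rpl29-203 at 44.8% and 47.3%.

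In 5 genes the leading transcript is annotated as a type other than protein coding, and that of Rpl13a (37.1% and 39.6%) has no entry in the annotation used here. For Rpl5 it was the retained intron transcript Rpl5-205 with 49.9% and 48.5%, ahead of the coding Rpl5-201 with 31.7% and 29.6%. For Rps20 it was the retained intron transcript Rps20-201 with 92.4% and 92.8%. The others were Rpl12-201, annotated for nonsense-mediated decay, with 64.9% and 64.5%, and the processed transcripts Rpl23-204 with 57.9% and 63.6% and Rpl35-203 with 84.0% and 87.7%. Such shares are estimates that divide reads over overlapping transcripts.

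**Figure D4:**
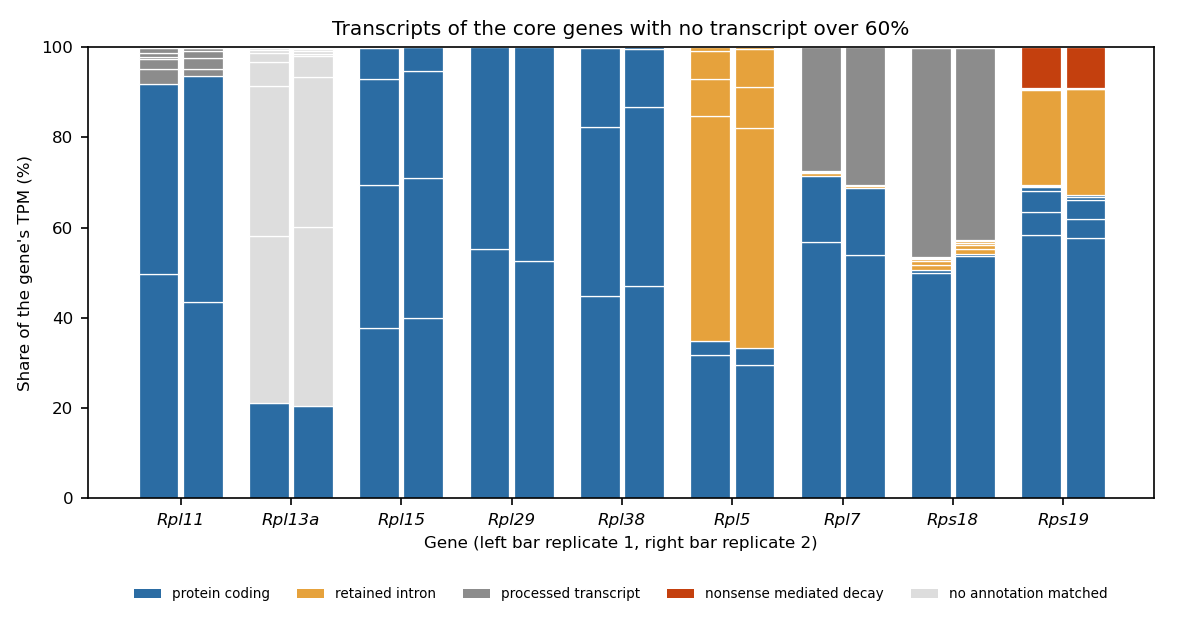
Share of the gene's TPM in percent for each transcript of the 9 core genes with no transcript over 60%, in replicate 1 (left bar) and replicate 2 (right bar), with colours for the annotated transcript type. Rpl15, Rpl29 and Rpl38 were divided over coding transcripts, Rps18 held 46.3% and 42.6% in 1 processed transcript, and most of Rpl13a lay in transcripts with no annotation matched.

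Runs of C and T lay near the start sites of the core genes more often than over all promoters. The RefSeq promoter table (GRCm38.p6) held 57 of the 77 core genes. A run of at least 8 C or T letters on the gene's strand within 20 bases of the start occurred in 26 of 57 (45.6%), against 15.9% of 27025 promoters in the table. The window also takes in bases before the start. A run in it need not lie in the mRNA, or open it as a TOP sequence does. In the 300-base windows, the letters CTTCCGG, as ETS family factors bind, occurred on either strand in 40.4% of core genes against 9.12% of all, and GCCATNTT, as YY1 binds, in 17.5% against 6.23%. GGGCGG, the core of Sp1 sites, occurred in 59.6% against 35.9%, and TATAAA in 8.77% against 14.2%. The motifs do not contain each other, and a match is a description of letters, not of binding.

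Start windows of 30 bases, 15 before and 15 from the RefSeq start, are shown for the core genes with the 3 longest runs and for 3 of the paralogue pairs, with the longest C or T run of the window in capitals.
Rpl7a, chr2:26910792-26910821, plus strand: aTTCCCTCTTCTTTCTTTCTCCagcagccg
Rpl27a, chr7:109519180-109519209, plus strand: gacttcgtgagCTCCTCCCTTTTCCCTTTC
Rpl35, chr2:39005117-39005146, minus strand: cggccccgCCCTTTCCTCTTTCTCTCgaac
Rps27l, chr9:66946071-66946100, plus strand: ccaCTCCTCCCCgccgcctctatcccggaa
Rps27, chr3:90213634-90213663, minus strand: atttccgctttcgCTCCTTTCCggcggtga
Rpl22l1, chr3:28805493-28805522, plus strand: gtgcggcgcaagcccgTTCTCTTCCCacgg
Rpl22, chr4:152325711-152325740, plus strand: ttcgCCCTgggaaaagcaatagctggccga
Rpl39l, chr16:10170213-10170242, plus strand: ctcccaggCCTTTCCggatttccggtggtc
Rpl39, chrX:37085208-37085237, minus strand: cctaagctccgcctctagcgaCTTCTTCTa
The longest run was 21 letters in Rpl7a. Rpl27a, among the lowest core genes in TPM, had 20, of which 19 fit in the printed window. Rps27l and Rps27 had runs of 9 letters each, and Rpl22l1 had 10 where Rpl22 had 4. The runs shown for Rps27l, Rpl22 and Rpl39l lie wholly before the RefSeq start. Of the paralogues and partners not shown, Rpl36al and Rpl36a had 5 each, and Rps27rt had 6.

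The replicates differed in the family as a whole. All 77 core genes were lower in replicate 1 than in replicate 2 once the libraries were centred on the median gene (log2 shift 0.02 over 15571 genes with a mean of at least 1 TPM), and by that measure 50.0% of those genes were lower. The core median was −0.24 on the log2 scale of TPM + 0.1, or 1.18-fold lower in replicate 1. Without centring, 76 of 77 were lower, against 44.9% of all genes, the exception being Rpl4. A difference of 0.32 on the log2 scale, at which the higher library is 25% above the lower, was passed by 20 of 77 core genes (26.0%) and by 19.8% of all genes. All 20 were lower in replicate 1, where 9.64% of all genes were that much lower and 10.1% that much higher. No core gene was over 2-fold apart, against 3.63% of all, of which 1.16% were lower and 2.47% higher in replicate 1. The share over all genes depends on which genes are counted: among genes with a mean of at least 10 TPM, a level every core gene exceeds, 9.65% passed 0.32, with 23 core genes past it. In bulk tissue, fewer cells of a type and less RNA per cell cannot be told apart.

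The core genes furthest towards replicate 2 were of short to middle length. Rps28 had 605 and 867 TPM in replicates 1 and 2 (a centred log2 difference of −0.54), Rpl39 338 and 478 TPM (−0.52), and Rps29 1045 and 1444 TPM (−0.49). Closest to even were Rpl4 with 1075 and 1065 TPM (−0.01), Rps2 with 1209 and 1233 TPM (−0.05), and Rpl19 with 831 and 858 TPM (−0.07). The shortest core gene, Rps27, was near the core median (−0.27). Over the 77 core genes the difference and the effective length had a Spearman rho of 0.54, against −0.19 over 13653 other protein-coding genes. Over 42 spike-in RNAs with at least 100 counts the rho was 0.27. In the class under 300 nt the core median was −0.47 (5 genes) and that of other protein-coding genes 0.13. From 300 to 400 nt these medians were −0.33 (10 core genes) and −0.12, with 67.0% of the other genes lower in replicate 1. From 400 to 600 nt they were −0.26 (25 core genes) and −0.04, with 56.5% of the others lower. From 600 to 1000 nt they were −0.21 (28 core genes) and 0.03, and from 1000 to 2000 nt −0.15 (9 core genes) and 0.05. In each of the 5 length classes that hold core genes the core median lay below that of the other genes.

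**Figure D5:**
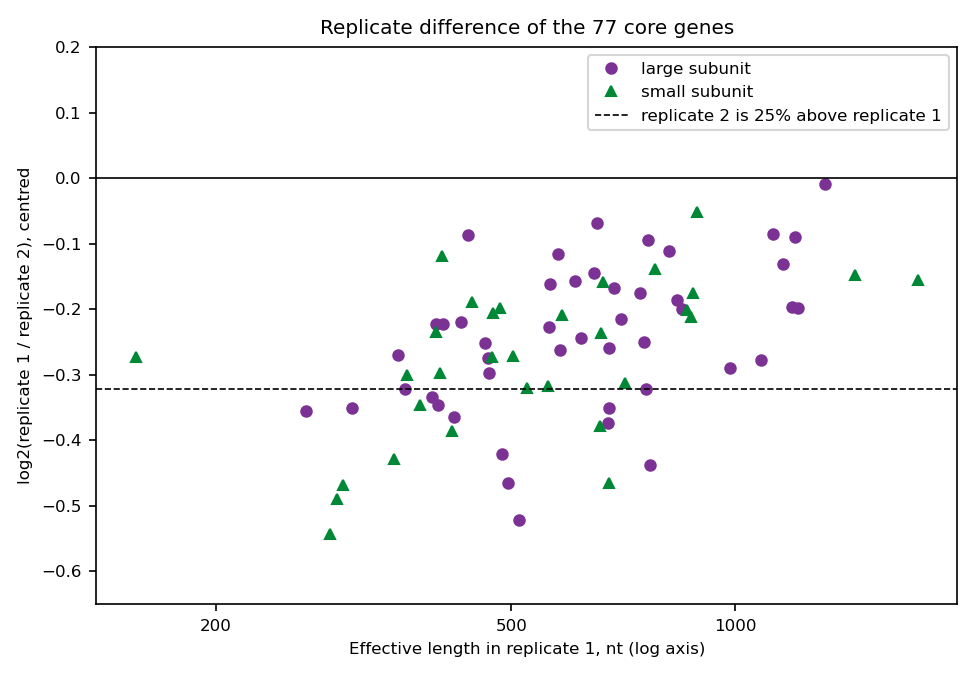
Centred log2 ratio of replicate 1 over replicate 2 against effective length in nt (log axis) for the 77 core genes, circles for the large and triangles for the small subunit. All points lie below 0, from −0.54 (Rps28) to −0.01 (Rpl4), and 20 lie below the dashed line, at which replicate 2 is 25% above replicate 1.

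Other measures also moved between the replicates. The liver genes Alb and Afp were higher in replicate 2, as given above. Of the limb markers, Pitx1 and Tbx4, known from the hindlimb, had 19.1 and 30.8 TPM and 12.6 and 18.02 TPM in replicates 1 and 2. The distal limb genes Hoxa13 and Hoxd13 had 9.27 and 14.3 TPM and 17.6 and 26.6 TPM. The forelimb gene Tbx5 went the other way with 16.0 and 12.02 TPM, as did Myog with 192 and 96.3 TPM, while the skin keratin Krt14 had 1102 and 1029 TPM. The median of 42 spike-in RNAs with at least 100 counts was 0.01 on the log2 scale without centring. The part of tissue makeup, library and length in the core difference was not tested. Of the paralogues, Rpl22l1 (−0.52), Rps27rt (−0.47), Rpl36al (−0.08), Rpl39l (−0.07) and Rps27l (−0.06) lay within the range of the core genes, −0.54 to −0.01. Rpl39l rests on 105 and 109 counts. Rpl7l1, at 0.07, lay above that range. Rpl3l (6 and 1 counts) and Rpl10l (0 counts) were too low to place.

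Other genes of the pathway were listed by role. Of the ribosomal proteins with other names, the scaffold Rack1 had 548 and 591 TPM (−0.13) and Fau, a fusion with Rps30, 482 and 547 TPM (−0.20), so both were lower in replicate 1. Of 15 translation factors known for TOP mRNAs, 14 were lower in replicate 1 and 1 was higher (median −0.09), and none passed 0.32. Over all genes with a mean of at least 1 TPM, 50.0% were lower and 19.8% passed 0.32 (9.65% at a mean of at least 10 TPM). Elongation factor Eef1a1 had 3817 and 4298 TPM (−0.19), Tpt1 811 and 912 TPM (−0.19), Btf3 498 and 543 TPM (−0.15), and the lowest, the initiation factor subunit Eif3f, 57.3 and 70.1 TPM (−0.31).

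The other lists had medians near 0. Past 0.32 were 1 biogenesis gene, 1 mitochondrial ribosomal protein gene, 2 genes of the mTOR list and 1 of the p53 list. Of all genes with a mean of at least 1 TPM, 19.8% passed 0.32, and of those with at least 10 TPM, 9.65%. Of 26 ribosome biogenesis genes, 13 were lower and 13 higher in replicate 1 (median −0.0006), with the nucleolar chaperone Npm1 at 597 and 737 TPM (−0.33) past that difference. Nucleolin (Ncl) had 299 and 301 TPM, Nop56 213 and 213 TPM, and the RNA polymerase I subunit Polr1a 14.5 and 16.4 TPM. Of 77 mitochondrial ribosomal protein genes, 34 were lower and 43 higher (median 0.02), and their median level was 76.3 and 73.8 TPM, far below the cytosolic core. The highest were Mrpl17 with 283 and 266 TPM, Mrps21 with 230.4 and 253 TPM and Mrpl42 with 223 and 216 TPM, and Mrpl1 was lowest with 16.0 and 15.5 TPM. The gene past 0.32 was Mrpl23, with 58.3 and 38.7 TPM (0.57), named after its values were seen.

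Of 18 genes for mTOR, S6 kinases and TOP regulators, 9 were lower and 9 higher (median 0.003). The mTOR activator Rheb had 181 and 186 TPM, Eif4ebp1, which encodes a repressor of the cap-binding factor, 161 and 119 TPM (0.41), the cap-binding factor Eif4e 116 and 104 TPM, and Rps6ka5 3.09 and 3.30 TPM. The kinase gene Rps6ka3, also named after its values were seen, had 4.14 and 5.68 TPM (−0.47). Of 6 genes that sense ribosome stress or act with p53, 3 were lower and 3 higher (median 0.02). The p53 target Cdkn1a had 339 and 225 TPM, a centred difference of 0.57, while Trp53 had 113 and 108 TPM, Mdm2 37.0 and 33.1 TPM and Eif2ak4 7.33 and 7.30 TPM.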

How the data were processed

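RNA was sequenced from 2 pools of limbs. The authors deposited, per library, a gene table and a transcript table with expected counts, TPM, posterior mean TPM and interval bounds of TPM (treated as a signal per the file headers), and in the transcript table the percent of the gene's TPM in each transcript. The assembly was mm10 per the labels, and the annotation was GENCODE M4 per the deposited sample records. The aligner and counting program used were not given in the sources used here. The column layout is the one RSEM writes. Symbols, transcript types and transcript sequences came from GENCODE M21 (GRCm38), which matched 42462 of 43346 genes and 101510 of 103639 transcripts. Promoter sequences came from RefSeq.

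Medians, sums and SDs were computed from the deposited TPM with Python 3.11.15 and pandas 2.3.3. Replicate differences are log2 of TPM + 0.1 in replicate 1 over replicate 2, less the median over genes with a mean of at least 1 TPM. TMM factors for rounded expected counts came from edgeR 4.0.16 (R 4.3.3), as an alternative. Coding sequences were aligned between the core gene's most abundant coding transcript and the most similar coding transcript of the paralogue. A pseudogene was assigned to the core gene with which it shared the most windows of 100 bases. The replicate difference was tested on simulated counts with planted changes, and the window search on a made-up sequence. The planted changes were larger than the core replicate difference. The simulated counts held no reads shared between genes and no spread between replicates beyond counting error. The median core gene had 7995 expected counts in replicate 1 and 11341 in replicate 2, and intervals and limits on 0 counts (3 counts, 95%) cover counting error only. The labels call the replicates biological, and spread is given over these 2 pools alone. Members and lists were chosen with earlier results of these data known. Named genes were all members that are not core, their partners, the 4 highest and 4 lowest core genes of each subunit, the 3 most in favour of each replicate, those divided over transcripts (under 60%), the 4 with the widest intervals, and the 3 highest and the lowest of each list. Rows and sequences not matched were not analysed here, and 2 genes that the rule or the figures would name are not reported here.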

Additional observations from a re-analysis of the deposited data

How the results depend on the processing

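The values given as means of both libraries were recomputed under other choices. No paired analysis was possible because there is 1 group. The core median, 689.8 TPM, was 809 TPM with pseudogenes named after each gene added, 887 TPM with pseudogenes sharing windows added and 548 TPM over the 8 genes with no shared window. The last 2 choices were made after seeing the data. The core share of TPM, 6.0%, was 7.53% with pseudogenes sharing windows, 7.19% of protein-coding TPM and 2.32% of expected counts. The SD of log2 TPM, 1.00, was 0.92 with named pseudogenes, 0.67 with pseudogenes sharing windows, 1.03 in expected counts and 0.83 over the 8 genes. The log2 ratio of large over small subunit, −0.10, was −0.19 with pseudogenes sharing windows and −0.042 in expected counts.

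Leaving out 1 library gave a range of 628 to 751 TPM for the median, 5.53% to 6.48% for the share, 0.99 to 1.00 for the SD and −0.14 to −0.06 for the ratio of subunits. The core replicate difference, −0.24, and the count of 20 genes stayed within 1.5 times under several choices. These were the posterior mean, added pseudogenes, pseudocount 1, TMM scaling, spike-in centring, no centring and both other gene backgrounds, with 18 to 23 genes counted. Over the 8 core genes with no shared window, a choice made after seeing the data, the difference was −0.34. The share of all genes past the same difference, 19.8%, was 9.65% over genes with a mean of at least 10 TPM and 37.4% over all genes with any count, and 15.3% to 19.8% under the other choices. Of 64 pair ratios recomputed, 61 kept their sign, and 12 moved by more than the SD between replicates. In expected counts, Rps27l over Rps27 was at 1.43, against 0.07 in TPM, Rps27rt over Rps27 at 2.20, against 1.40, and Rpl7l1 over Rpl7 at −1.44, against −3.35. Rpl3l over Rpl3, −12.02 in TPM, was −13.36 in expected counts and −9.65 with pseudocount 1. Rpl10l over Rpl10, with Rpl10l at 0 counts, depends on the pseudocount and ranged from −16.71 to −9.28. The ratios that changed sign were Rpl22l1 over Rpl22, at −0.56 in expected counts and −0.02 in replicate 1 alone, and Rps27l over Rps27, at −0.04 in replicate 2 alone. Depth limits Rpl3l and Rpl10l alone among the paralogues.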
